A study of Danio rerio with 2 samples.

Results

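The 10 genes followed here are ones that mononuclear phagocytes are known to use, measured by RNA-seq of 2 sorted zebrafish populations: the complement C1q chains *c1qa*, *c1qb* and *c1qc*, the growth factor receptors *csf1ra* and *csf1rb*, the endocytic receptors *marco* and *mrc1a*, the lipid carrier *apoeb* and the short granulins *grn1* and *grn2*. All 10 symbols were matched to 1 Ensembl gene each, so that 10 of the 32520 genes in the tables are described. *mrc1a* stands for the only gene listed as MRC1, and the gene names do not settle whether this gene is *mrc1a*. By RefSeq synonyms, *grn1* and *grn2* are the genes listed as *grna.1* and *grna.2*. The thymus library (thymus lymphocytes) held EGFP+ lymphocytes from untreated zebrafish at 6 weeks post fertilization, labelled as positive for both lck:mCherry and CD8:EGFP. The myeloid library (tumor myeloid cells) held EGFP+ myeloid cells from melanoma, given the same age of 6 weeks and labelled as exposed for 24 h to SB431542, which blocks TGF-β receptor kinases. The ages are those of the labels: the methods and legends of the study give other ages for the thymus donors, and its text on this RNA-seq names neither an age nor this exposure for the myeloid cells. By the study's methods the tumor-bearing fish carried a melanoma-driving BRAF mutation and lacked p53 and nacre (mitfa). Tumors in this line were made by injecting embryos with a vector that returned *mitfa* as a minigene together with mCherry. In both populations, EGFP was driven by a region upstream of *cd8a*, so the sort chose cells by the activity of that region and by their scatter gate. Each population had 1 library and no replicate. Tissue, genotype, treatment and cell type therefore cannot be told apart, and every difference below compares these libraries.

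Reads on genes numbered 32975680 in the library of thymus lymphocytes and 39446435 in that of tumor myeloid cells. Levels are given as CPM, the reads on a gene per 1000000 reads on all genes, without scaling for gene length. For this reason each gene is compared between the libraries, and the levels of different genes are not ranked against each other. Brackets hold 95% Wilson intervals of the gene's share of the reads, which cover counting error only, since amplification copied molecules more than once. After a ratio of the libraries, brackets hold its 95% exact conditional interval, also of counting error alone. The limit set by a count of 0 is 3 reads, or 0.0910 CPM in thymus lymphocytes and 0.0761 CPM in tumor myeloid cells. A fold against a library with 0 reads was computed against 3 reads in that library. It is a lower bound that leaves out counting error in the other library. In bulk RNA, fewer cells of a type and less RNA per cell cannot be told apart.

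Phagocytes take up dying cells, microbes and debris through surface receptors and soluble tags. C1q is the recognition unit of the classical complement pathway, built from A, B and C chains with collagen-like stems and globular heads, and in mammals macrophages and immature dendritic cells are main producers of it. The CSF1 receptor carries survival signals for macrophages, and zebrafish have paired copies of it, of which *csf1ra* is also required for yellow pigment cells (xanthophores). Apolipoprotein E moves cholesterol and other lipids out of cells that have digested membranes, and granulins are cysteine-rich secreted proteins that macrophages and many other cells deliver to lysosomes.

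The 10 genes were chosen with earlier results of these data known, so their counts beside the shares of all genes are a description only. Of the 10 genes, 8 were at 1 CPM or more in tumor myeloid cells, against 33.0% of all genes in the table. In thymus lymphocytes 2 of the 10 were, *apoeb* and *grn1*, against 39.8% of all genes. All 8 genes that reached 1 CPM in either library were at least 4-fold higher in tumor myeloid cells on the scale of CPM plus 1, a step that 17.8% of the 15139 genes that reached 1 CPM in a library made. None was 4-fold higher in thymus lymphocytes, where 29.6% of those genes were, and the same counts, 8 and 0, were obtained with edgeR's TMM library sizes and with DESeq2 size factors. The remaining genes, *csf1rb* and *mrc1a*, stayed below 1 CPM in both libraries. Over all 10 genes the median log2 ratio of CPM plus 1, myeloid over thymus, was 4.16, and over the 15139 genes it was −0.73. Without the added CPM, and with counts under 3 raised to 3 reads, the median of the 10 was 6.50. Together the 10 genes had 29251 reads or 742 CPM in tumor myeloid cells and 142 reads or 4.31 CPM in thymus lymphocytes.

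**Figure D1:**
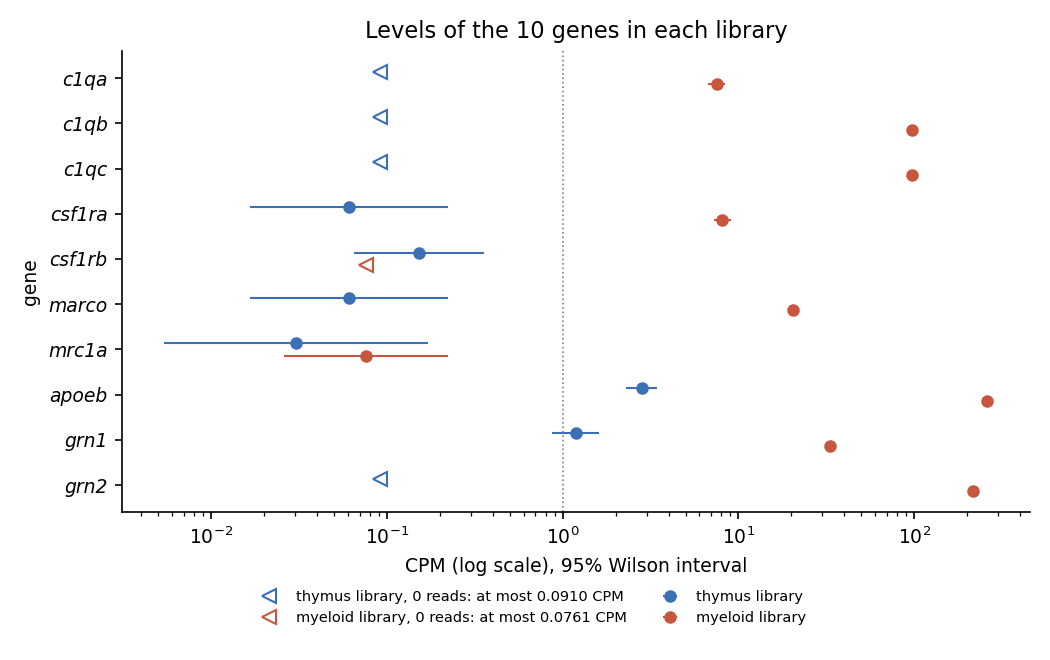
CPM of each of the 10 genes on a log scale, with 95% Wilson intervals, in thymus lymphocytes (blue) and tumor myeloid cells (red). Open triangles stand for 0 reads and sit at the CPM of 3 reads, and the dotted line marks 1 CPM. In all, 8 genes lie to the right of the line in tumor myeloid cells, from *c1qa* at 7.53 CPM to *apoeb* at 259.7 CPM, and *csf1rb* and *mrc1a* lie to the left of it in both.

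The C1q chains had no reads at all in thymus lymphocytes. *c1qb* (ENSDARG00000044612), the gene of the B chain, had 3855 reads in tumor myeloid cells, or 97.7 CPM (94.7 to 101), which is at least 1074-fold above thymus lymphocytes. *c1qc* (ENSDARG00000095627), the gene of the C chain, had 3857 reads, or 97.8 CPM (94.7 to 101), at least 1075-fold above. *c1qa* (ENSDARG00000044613), the gene of the A chain, had 297 reads, or 7.53 CPM (6.72 to 8.44), at least 82.8-fold above. Thus the B and C chains took 48.1% (47.0 to 49.2) and 48.2% (47.1 to 49.3) of the 8009 reads on the 3 genes, and the A chain took 3.71% (3.32 to 4.14). These shares are of reads, and no transcript lengths were used to turn them into molecules. In the RefSeq annotation of a later assembly, GRCz12tu, the genes lie next to each other in the order *c1qb*, *c1qc* and *c1qa*, with no other protein-coding gene between them.

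The receptors differed in whether they were detected. *csf1ra* (ENSDARG00000102986) had 319 reads in tumor myeloid cells, or 8.09 CPM (7.25 to 9.02), and 2 reads in thymus lymphocytes. The ratio was 133, with an exact counting interval from 36.6 to 1106. Its copy *csf1rb* (ENSDARG00000053624), which in zebrafish acts in blood-forming cells as well as in macrophages, had 0 reads in tumor myeloid cells and 5 reads in thymus lymphocytes, or 0.152 CPM (0.0648 to 0.355). Thus all 319 reads on the receptor pair in tumor myeloid cells fell on *csf1ra*. By the limit of 3 reads, the 0 reads of *csf1rb* allow it up to 0.940% of them. A count of 0 was common in tumor myeloid cells, where 13405 of the 32520 genes had 0 reads. Set against 3 reads in tumor myeloid cells, the 5 thymus reads of *csf1rb* give a fold of 1.99. The low end of their interval, 0.0648 CPM, lies below the myeloid limit of 0.0761 CPM. These counts therefore do not show that *csf1rb* was higher in thymus lymphocytes.

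*marco* (ENSDARG00000059294), a class A scavenger receptor that binds bacteria and modified lipoproteins, had 811 reads in tumor myeloid cells, or 20.6 CPM (19.2 to 22.0), and 2 reads in thymus lymphocytes. The ratio was 339, with a counting interval from 93.5 to 2804. By contrast, the gene listed as MRC1 (ENSDARG00000102100), a mannose receptor gene taken here as *mrc1a*, had 3 reads in tumor myeloid cells and 1 read in thymus lymphocytes. Both counts are at or under 3 reads, so no fold is given. The related *mrc1b*, singled out after its values were seen, had 4 reads in tumor myeloid cells and 0 in thymus lymphocytes. Mannose receptor transcripts were therefore not detectable above a few reads in either library, whereas *marco* and *csf1ra* were.

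*apoeb* (ENSDARG00000040295), an apolipoprotein E gene that is a marker of microglia in zebrafish, had 10246 reads in tumor myeloid cells, or 259.7 CPM (255 to 265). In thymus lymphocytes it had 93 reads, or 2.82 CPM (2.30 to 3.45). The ratio was 92.1, with a counting interval from 75.1 to 114. The other apolipoprotein E gene, *apoea*, singled out after its values were seen, had 0 reads in both libraries.

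The short granulin *grn2* (ENSDARG00000088641) had 8557 reads in tumor myeloid cells, or 217 CPM (212 to 222), and 0 in thymus lymphocytes, at least 2384-fold lower there. Its ratio on the scale of CPM plus 1 ranked 53 among the 15139 genes. The neighbouring *grn1* (ENSDARG00000089362) had 1306 reads in tumor myeloid cells, or 33.1 CPM (31.4 to 35.0), and 39 reads in thymus lymphocytes, or 1.18 CPM (0.865 to 1.62). Its ratio was 28.0, with a counting interval from 20.4 to 39.6. With TMM library sizes the thymus level of *grn1* was 0.966 CPM and with DESeq2 size factors 0.982 CPM, both below 1 CPM. In RefSeq a noncoding gene, *grnas*, overlaps both *grn1* and *grn2*. It had 9 reads in each library, and since the library kit does not mark strand, reads of overlapping genes cannot be assigned by strand. Whether *grn1* and *grn2* share sequence that splits reads between them was not examined.

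Of the 8 genes at 1 CPM or more in tumor myeloid cells, 6 had 3 reads or fewer in thymus lymphocytes, and 4 of these, the C1q genes and *grn2*, had 0. Among all 10719 genes at 1 CPM or more in tumor myeloid cells, 11.1% had 3 reads or fewer and 5.19% had 0 in thymus lymphocytes. Among the 15139 genes compared, the share with a higher ratio was 0.343% for *grn2*, 0.964% for *c1qc*, 0.978% for *c1qb* and 1.37% for *apoeb*. It was 4.68% for *marco*, 5.95% for *grn1*, 9.96% for *csf1ra* and 9.99% for *c1qa*. Genes of low CPM cannot rank high on this scale, because 1 CPM is added to both libraries.

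**Figure D2:**
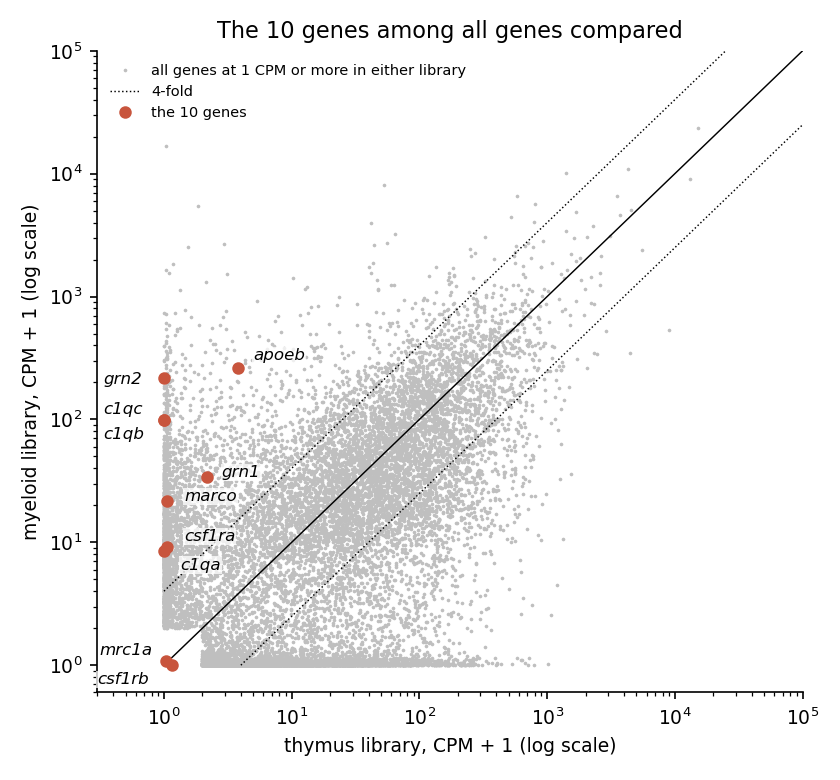
CPM plus 1 in tumor myeloid cells against thymus lymphocytes, both on log scales, for the 15139 genes that reached 1 CPM in a library (grey) and the 10 genes (red). The solid line marks equal levels and the dotted lines 4-fold differences. Of the 10 genes, 8 lie above the upper dotted line near the left edge, and *csf1rb* and *mrc1a* lie near the lower left corner.

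The progranulin genes, which encode the long multi-granulin precursors, differed from the short granulins and from each other. *grna* had 1874 reads or 56.8 CPM in thymus lymphocytes and 5579 reads or 141 CPM in tumor myeloid cells, a ratio of 2.49 (2.36 to 2.62). *grnb* had 2947 reads or 89.4 CPM in thymus lymphocytes and 37 reads or 0.938 CPM in tumor myeloid cells, 95.3-fold lower (69.0 to 136). Both genes were singled out after their values were seen. Over the 4 granulin genes, thymus lymphocytes had 4860 reads or 147 CPM and tumor myeloid cells 15479 reads or 392 CPM. *grnb* took 60.6% (59.3 to 62.0) of these reads in thymus lymphocytes and 0.239% (0.173 to 0.329) in tumor myeloid cells. *grn2* took 55.3% (54.5 to 56.1) in tumor myeloid cells, and its 0 reads in thymus lymphocytes allow up to 0.0617% there. The share of *grna* was closer between the libraries, 38.6% (37.2 to 39.9) in thymus lymphocytes and 36.0% (35.3 to 36.8) in tumor myeloid cells, with intervals that do not overlap. Granulin reads were thus present in both libraries and fell in part on different copies. These shares are of reads, and no transcript lengths were used to turn them into molecules, so long and short genes are not ranked by them.

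**Figure D3:**
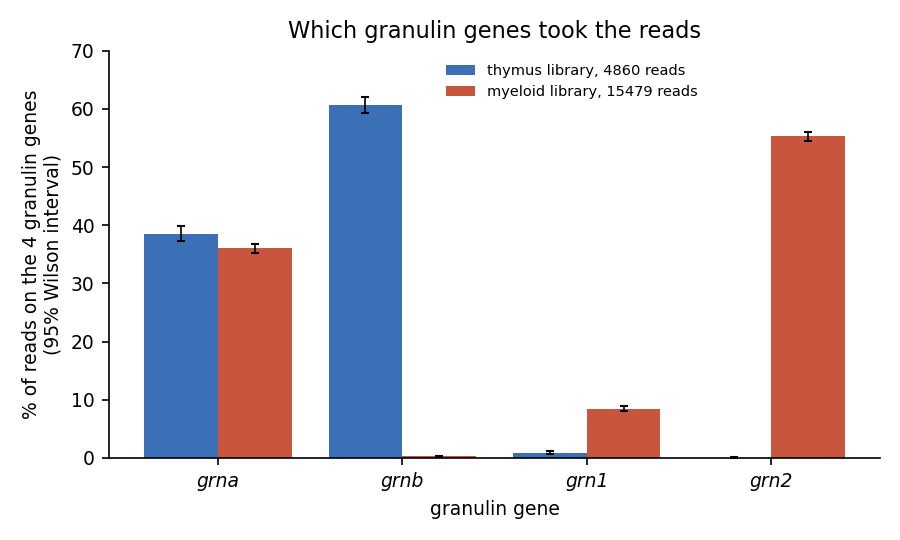
Percent of the reads on the 4 granulin genes that fell on each gene, in thymus lymphocytes (blue, 4860 reads) and tumor myeloid cells (red, 15479 reads), with 95% Wilson intervals. Shares are of reads, without scaling for gene length. The *grnb* bar is at 60.6% in thymus lymphocytes and the *grn2* bar at 55.3% in tumor myeloid cells, while *grna* is at 38.6% and 36.0%.

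Lysosomal partners of the granulins differed in both directions. Of the 11 genes of the granulin family and its lysosomal partners, 5 were at least 4-fold higher in tumor myeloid cells and 4 in thymus lymphocytes, beside shares of 17.8% and 29.6% over the 15139 genes, with a median log2 ratio of 1.30. SORT1 is the name of 2 genes, after the sortilin receptor that takes up progranulin in mammals. One (ENSDARG00000029402) had 2610 reads in tumor myeloid cells and 11 in thymus lymphocytes, and the other (ENSDARG00000056252) had 8 and 549. They were chosen after their values were seen. The proteases *ctsd* and *ctsla* (cathepsins D and L) were at 2426 and 366 CPM in tumor myeloid cells and at 247 and 1.58 CPM in thymus lymphocytes. The gene listed as CTSB (cathepsin B) was within 4-fold, at 202 and 90.2 CPM in the same order, a ratio of 2.24 (2.14 to 2.33). *gpnmb*, a membrane glycoprotein of melanosomes and of phagocytes, had 8584 reads against 1. *psap*, which encodes the precursor of the saposins and helps to carry progranulin to lysosomes, was 6.80-fold lower in tumor myeloid cells (6.63 to 6.98). *tfe3*, a regulator of lysosomal genes, was 93.2-fold lower (77.7 to 113). Another such regulator on the list, *tfeb*, went the other way, with 291 reads in tumor myeloid cells and 4 in thymus lymphocytes. It was named after its values were seen. Higher levels of the short granulins thus stood beside both higher and lower levels of lysosomal partners.

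The list of complement genes placed C1q beside the rest of the cascade. Of its 35 matched genes, 24 were below 1 CPM in both libraries. Of the 11 that reached 1 CPM in a library, 5 were at least 4-fold higher in tumor myeloid cells and 1 in thymus lymphocytes. Of the 15139 genes 17.8% and 29.6% were, in the same order. The median log2 ratio was 1.77 over the 11 genes that reached 1 CPM in a library, and 0 over all 35, most of which had almost no reads. Of the proteases that act with C1q, *c1r* had 0 reads in tumor myeloid cells and 3 in thymus lymphocytes. *c1s.1* was at 3.24 and 0.243 CPM in the same order, a ratio of 13.4 (6.59 to 31.6), but under 4-fold on the scale of CPM plus 1. Both were singled out after their values were seen. Of the named genes, *c7b*, a component of the terminal pore, was at 68.5 CPM in tumor myeloid cells and 0.212 CPM in thymus lymphocytes. The anaphylatoxin receptors *c5ar1* and *c3ar1*, which sense complement fragments on myeloid cells, had 1035 and 770 reads in tumor myeloid cells and 1 and 4 in thymus lymphocytes. *c1qbp*, a mitochondrial protein named for its binding to C1q heads, was at 116 CPM in tumor myeloid cells and 109.7 CPM in thymus lymphocytes, a ratio of 1.05. *itgb2*, a chain of complement receptors and of other leukocyte integrins, was 14.8-fold lower in tumor myeloid cells (12.9 to 17.0). In thymus lymphocytes the C3 genes *c3b.1* and *c3b.2* were at 3.88 and 1.30 CPM, and in tumor myeloid cells at 1.72 and 0.101 CPM.

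Around the CSF1 receptor, *il34* and *csf1a* had their reads mainly or only in the same library as *csf1ra*. The 13 reads of *csf1b*, which stayed below 1 CPM in both libraries, were in thymus lymphocytes. *il34*, which encodes a ligand of the receptor, had 16131 reads or 409 CPM in tumor myeloid cells and 198 reads or 6.00 CPM in thymus lymphocytes, a ratio of 68.1 (59.2 to 78.8). Of the CSF1 genes, which were chosen after their values were seen, *csf1a* had 243 reads in tumor myeloid cells and 0 in thymus lymphocytes, and *csf1b* had 0 and 13. The gene listed as SPI1, the myeloid transcription factor PU.1, had 12374 reads in tumor myeloid cells and 2 in thymus lymphocytes. Of the 15 genes of this list, 13 reached 1 CPM in a library. Of these, 4 were at least 4-fold higher in tumor myeloid cells and 6 in thymus lymphocytes, against 17.8% and 29.6% of the 15139 genes. The median log2 ratio was −1.53 over the 13 genes and −1.13 over all 15. The 6 genes encode signalling proteins, and why they were higher in thymus lymphocytes was not tested. Among them *plcg2*, *syk* and *lyn*, named after their values were seen, had 4444, 4686 and 129 reads in thymus lymphocytes. In tumor myeloid cells they had 2, 259 and 1, in the same order. *cbl* and *cblb*, ubiquitin ligases that turn over receptors, had 7107 and 6558 reads in thymus lymphocytes and 1 and 815 in tumor myeloid cells. *inpp5d*, a lipid phosphatase, was 8.38-fold lower in tumor myeloid cells (7.91 to 8.88). The kinase genes *pik3cg* and *hck* were within 4-fold, at 111 and 106 CPM in tumor myeloid cells and 321 and 40.9 CPM in thymus lymphocytes.

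Other genes of engulfment differed in both directions. Of 23 genes, 11 were below 1 CPM in both libraries. Of the 12 that reached 1 CPM in a library, 4 were at least 4-fold higher in tumor myeloid cells and 2 in thymus lymphocytes. The shares over the 15139 genes were 17.8% and 29.6%. The median log2 ratio was −0.38 over the 12 genes that reached 1 CPM in a library and −0.01 over all 23, where it turned to 0.03 with TMM and carries no direction. *havcr1*, a receptor for phosphatidylserine on dying cells, was at 85.6 CPM in tumor myeloid cells and 7.22 CPM in thymus lymphocytes, a ratio of 11.9 (10.4 to 13.6). *dock1*, an activator of Rac in engulfment, had 2042 reads against 6, whereas its partner *elmo1* was 10.5-fold lower in tumor myeloid cells (10.2 to 10.9). *itgav*, an integrin chain that binds bridging proteins on dying cells, had 1801 reads in thymus lymphocytes and 8 in tumor myeloid cells. *scarb1* was at 24.7 and 14.3 CPM in tumor myeloid cells and thymus lymphocytes. *scarb2a* was at 78.9 and 113 CPM in the same order, and its direction changed with TMM and with DESeq2 size factors. The scavenger receptor CD36 had 1 read in tumor myeloid cells and 0 in thymus lymphocytes, and *timd4* had 0 in both, values singled out after they were seen.

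Genes of lipid transport and storage differed in both directions around *apoeb*. Of 43 genes, 24 were below 1 CPM in both libraries. Of the 19 that reached 1 CPM in a library, 9 were at least 4-fold higher in tumor myeloid cells and 2 in thymus lymphocytes. The shares over the 15139 genes were 17.8% and 29.6%. The median log2 ratio was 1.38 over the 19 genes that reached 1 CPM in a library and 0 over all 43, most of which had few reads. The fatty acid binding genes *fabp3* and *fabp4a* were at 388 and 242 CPM in tumor myeloid cells and at 14.8 and 0.728 CPM in thymus lymphocytes. *lipa*, the lysosomal lipase that frees cholesterol, was at 121 CPM against 2.67 CPM, a ratio of 45.3 (36.7 to 56.5). NPC2 is the name of 2 genes, after a protein that binds cholesterol in lysosomes. One (ENSDARG00000090912) was at 427 and 83.9 CPM in tumor myeloid cells and thymus lymphocytes, and the other (ENSDARG00000096979), named after its values were seen, at 107 and 0.121 CPM. *npc1*, which encodes the membrane partner of that protein, was 4.06-fold lower in tumor myeloid cells (3.91 to 4.23). It lay just past the 4-fold step, and was 2.71-fold lower with TMM and 2.80-fold lower with DESeq2 size factors, so that 1 gene of the list in place of 2 was 4-fold higher in thymus lymphocytes under these and under both other scalings. *plin2*, a coat protein of lipid droplets, and *nr1h3*, a nuclear receptor for oxidized cholesterol, were 2.89-fold and 1.78-fold lower.

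**Figure D4:**
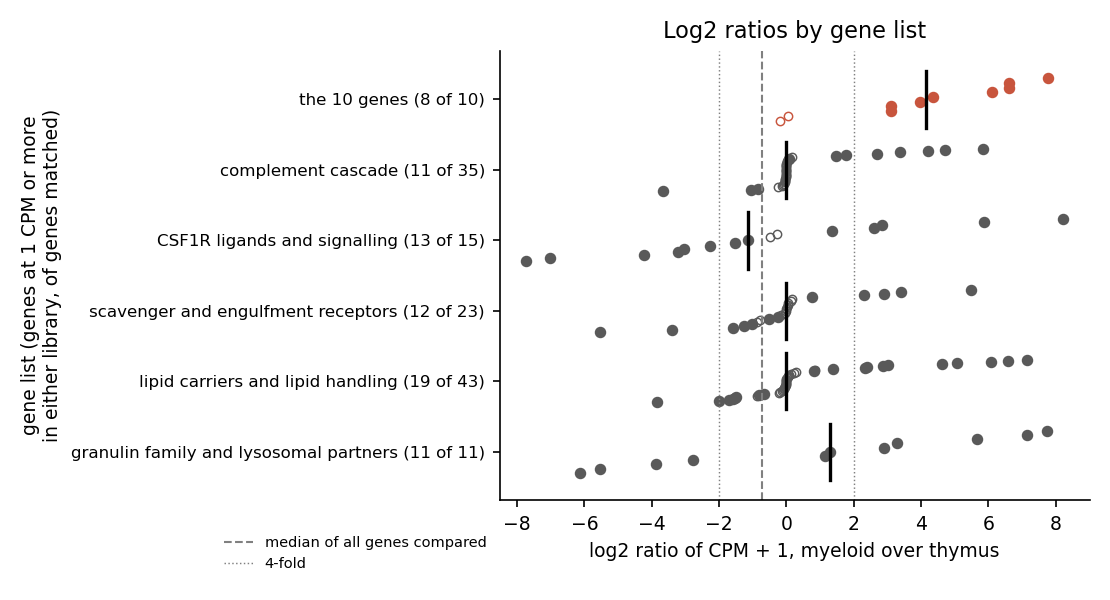
Log2 ratio of CPM plus 1, myeloid over thymus, for every matched gene of the 10 genes (red) and of the related lists (grey). Filled points are genes that reached 1 CPM in a library, open points are genes below it in both, black bars are medians over the matched genes, the dashed line is the median of −0.73 over all 15139 genes compared and the dotted lines mark 4-fold. The bar of the 10 genes is at 4.16, and those of the other lists lie between −1.13 and 1.30, with genes on both sides.

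Markers of other cells also differed between the libraries, and their part in the levels of the 10 genes was not tested. Of 20 macrophage genes, 11 were at 1 CPM or more in tumor myeloid cells and 3 in thymus lymphocytes, and they summed to 4306 and 248 CPM. The microglia receptor *p2ry12* had 0 reads in both. Melanocyte genes summed to 24686 CPM in tumor myeloid cells, with 9 of 12 at 1 CPM or more, and to 1.30 CPM in thymus lymphocytes, with 0 of 12. Since *csf1ra* also serves xanthophores, their markers stand beside it. Of 8 xanthophore genes, 3 were at 1 CPM or more in tumor myeloid cells (*slc2a15b*, *bco1* and *gch2*) and 2 in thymus lymphocytes, and they summed to 397 and 7.16 CPM. The others had at most 3 reads in tumor myeloid cells, among them *xdh*, *aox5* and the PAX7 genes. Of 4 neutrophil genes, 4 were at 1 CPM or more in tumor myeloid cells and 1 in thymus lymphocytes, with sums of 656 and 132 CPM. MMP9, at 440 and 132 CPM, and *mmp13a*, at 179 CPM in tumor myeloid cells, made most of these sums. In tumor myeloid cells *npsn* was at 29.2 CPM and *lyz* at 7.55 CPM. The listed *mpx* and *lect2l* matched no gene, and the paper reports no *mpx* expression in its sorted myeloid cells. Of 6 endothelial genes, 1 was at 1 CPM or more in each library, with sums of 1.39 and 3.88 CPM. In tumor myeloid cells it was *flt1*, at 1.24 CPM (49 reads, against 3 in thymus lymphocytes). In thymus lymphocytes it was FLI1, at 3.15 CPM, with 0 reads in tumor myeloid cells. *kdrl* and *cdh5* had 1 read each in tumor myeloid cells, beside the 3 reads of the gene taken as *mrc1a*. In thymus lymphocytes 10 of 10 T cell genes were at 1 CPM or more, summing to 2113 CPM against 3.22 CPM in tumor myeloid cells, while the highest MPEG1 gene of macrophages had 4 reads there, beside the 93 reads of *apoeb*. Summed levels in tumor myeloid cells and thymus lymphocytes were 177 and 5.28 CPM for iridophore genes and 113 and 457 CPM for keratinocyte genes. They were 344 and 16.0 CPM for thymic epithelium genes and 31.4 and 11.3 CPM for B cell genes. Erythrocyte genes summed to 18.7 and 0.425 CPM. In tumor myeloid cells TFEC and *pnp4a*, at 110 and 66.4 CPM, made most of the iridophore sum, and *ltk* had 2 reads. In thymus lymphocytes *cldni* and TP63 were at 421 and 32.6 CPM, whereas *krt4*, *krt5* and *epcam* were higher in tumor myeloid cells. *krt8* made 316 CPM of the thymic epithelium sum in tumor myeloid cells, and *epcam*, at 28.1 CPM, is on that list and the keratinocyte list. Of the 5 genes on the thymic epithelium list, the defining *foxn1* had 2 reads in tumor myeloid cells and 0 in thymus lymphocytes.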

How the data were processed

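RNA was sequenced from 1 library of sorted thymus lymphocytes and 1 of sorted melanoma myeloid cells, amplified from low input with a SMART-Seq kit. The authors deposited raw read counts per Ensembl gene, made with HTSeq after trimming with cutadapt. The submitters' processing notes name STAR and GRCz11, the paper's methods TopHat and GRCz10. The annotation release and counting options are not given in the sources used here. The thymus table also held 5 summary rows (28.4% of its reads), left out of library sizes, of which 6966482 reads were not uniquely aligned. The myeloid table held 0 such rows.

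CPM, Wilson intervals, exact conditional intervals of ratios and log2 ratios with 1 CPM added were computed in Python 3.11.15 (numpy 2.4.6, pandas 2.3.3, scipy 1.17.1, figures with matplotlib 3.10.9), and other library sizes with edgeR 4.0.16 and DESeq2 1.42.0 in R 4.3.3. The scripts were tested on simulated counts. With 1 library per group, no test was made and called means past 4-fold. Of 32520 identifiers, 29201 had a symbol. The symbols of the members and lists were matched to these in any case, else as the capital symbol without paralog letter, else through synonyms in RefSeq (GRCz12tu). The RefSeq synonym of *cd163* pointed to another gene and was not used. The members and lists were chosen with earlier results of these data known. Named are the 10 genes, up to 4 genes of each related list with the highest CPM in each library, marker genes, and genes stated to be chosen after their values were seen. Alternatives were other library sizes, thresholds, folds, a pseudocount of 0.1 CPM, a minimum of 10 reads and summed symbols. The authors' FPKM values were not used here.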

Additional observations from a re-analysis of the deposited data

How the results depend on the processing

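No paired analysis was possible because the groups hold a single library each, without a test. For the same reason no replicate could be left out, and scaling by coding length was not run, since no transcript or protein lengths were used here. The counts of the 10 genes that were at 1 CPM or more in tumor myeloid cells (8), 4-fold higher there (8) or 4-fold higher in thymus lymphocytes (0) were the same under each alternative. The count at 1 CPM or more in thymus lymphocytes fell from 2 to 1 with TMM and to 1 with DESeq2 size factors, where *grn1* was below the threshold, and to 0 at a threshold of 5 CPM. The median log2 ratio of 4.16 was 6.36 with a pseudocount of 0.1 CPM, since several genes had at most a few reads in thymus lymphocytes, and ranged from 4.16 to 5.22 under the others. TMM shifted the median log2 ratio of all genes compared by 0.53 and DESeq2 by 0.49. Leaving the 10 genes with most reads in each library out of both library sizes shifted it by 0.06. Leaving melanocyte genes out of library sizes, an alternative added after seeing the data, shifted it by 0.03. None of these 4 changed the sign of a ratio among the 9 genes of the 10 with more than 3 reads in a library. The 4-fold calls of the related lists under these scalings, also added after seeing the data, went from 2 to 1 in thymus lymphocytes for the lipid list under all 4, from 5 to 6 in tumor myeloid cells for the complement list with TMM and DESeq2, and were otherwise the same in number. Of 80 values of single levels under them, 26 lay outside the interval of the reported level and 2 crossed 1 CPM. Depth limits what can be said of genes at 0 to 5 reads, for which transcripts lost before sequencing are not covered by the intervals.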
